A study of Mus musculus with 16 samples.

Results

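Fatty acid oxidation in mouse liver, and the nuclear receptor PPARA that controls it, were followed through 42 genes named for their known roles, out of 24411 genes in the count tables. The 42 were chosen with earlier results of these data known. They comprise 18 mitochondrial proteins, 13 peroxisomal proteins, 3 microsomal cytochrome P450 enzymes, 3 regulators and 5 others. The others are acyl-CoA synthetases and a carnitine transferase found in several places of the cell (Acsl1, Slc27a2, Crat), the cytosolic thioesterase Acot1 and the membrane pantetheinase Vnn1. All 42 passed the filter on low counts, which left 12901 genes. Liver RNA was sequenced from 4 groups of 4 libraries. Controls, called PF, received vehicle and a pair-fed diet without ethanol. EtOH mice had an ethanol diet after the NIAAA model, which joins chronic feeding to binge dosing, and vehicle. EtOH+MBV mice had that ethanol diet and PF+MBV mice the pair-fed diet, both with matrix-bound nanovesicles (MBV), vesicles embedded in the extracellular matrix. The sources used here give no strain, sex or age of the mice and no dose or origin of MBV. No label says whether the 4 libraries of a group came from 4 mice, so each p-value measures the spread between these libraries, which may be technical.

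As background, fatty acids are activated to acyl-CoA by acyl-CoA synthetases. Long chains enter mitochondria as carnitine esters through CPT1A, the carrier SLC25A20 and CPT2. There they are shortened by acyl-CoA dehydrogenases, the trifunctional protein and thiolases. Electrons taken by the acyl-CoA dehydrogenases leave through ETFA, ETFB and ETFDH. Very long, branched and dicarboxylic chains are shortened in peroxisomes, and CYP4A enzymes of the endoplasmic reticulum oxidise the far end of the chain. PPARA, bound with RXR to DNA and activated by fatty acids, drives genes of all 3 compartments in fasted liver.

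The libraries held 15271344 to 20493181 counts in genes. Levels are given as CPM, the usual counts scaled to a common library size, after TMM, a normalization that sets the bulk of genes level between libraries. Fold changes and adjusted p-values come from edgeR's quasi-likelihood fit of all 16 libraries, with standard errors (SE), Benjamini-Hochberg adjustment over all tested genes and a limit of 0.05. Rose and fell are used only of members past that limit. The 9 hepatocyte markers were detected in every group and summed to 93800 to 159100 CPM a library. In EtOH against PF 3 of them rose, or 33.3%, against 39.8% of all tested genes called. EtOH 1 and EtOH+MBV 1 stood apart from their groups on the first 2 principal components. EtOH 1 was the lowest EtOH library in 38 of the 42 members, and EtOH+MBV 1 the highest EtOH+MBV library in 31. The TMM factor, by which CPM are divided, was highest in EtOH 1 (1.269) and lowest in EtOH 3 (0.863). The scaling thus lowered all genes of EtOH 1 and raised all those of EtOH 3, and its part in the ranks was not tested. The members summed to 6740 CPM in EtOH 1, to between 10739 and 14796 CPM in the rest of EtOH and to between 15242 and 19955 CPM in PF. In whole liver, fewer cells of a type and less RNA per cell cannot be told apart.

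With ethanol, most of the oxidation genes fell. In EtOH against PF, 25 of the 42 members fell and 3 rose, which is 66.7% called, against 39.8% of all tested genes (19.5% lower and 20.4% higher). The median log2 fold change of the members was -0.54, and that of all tested genes 0.01. The 4 EtOH and 4 PF libraries did not overlap in 23 members, or 54.8%, as against 32.3% of all tested genes. Since the members were chosen with earlier results of these data known, these shares only describe them. Falls covered 13 of 18 mitochondrial and 8 of 13 peroxisomal members, while none of the 3 microsomal members passed, with Cyp4a31 at an unadjusted p under 0.05. The 3 members that rose were Pdk4, Acot2 and Abcd2. Without EtOH 1, 21 members fell and 3 rose, with a median of -0.37, and without both EtOH 1 and EtOH+MBV 1 24 fell and 3 rose. Fitted without the MBV groups, 17 members passed, 14 lower and 3 higher.

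**Figure D1:**
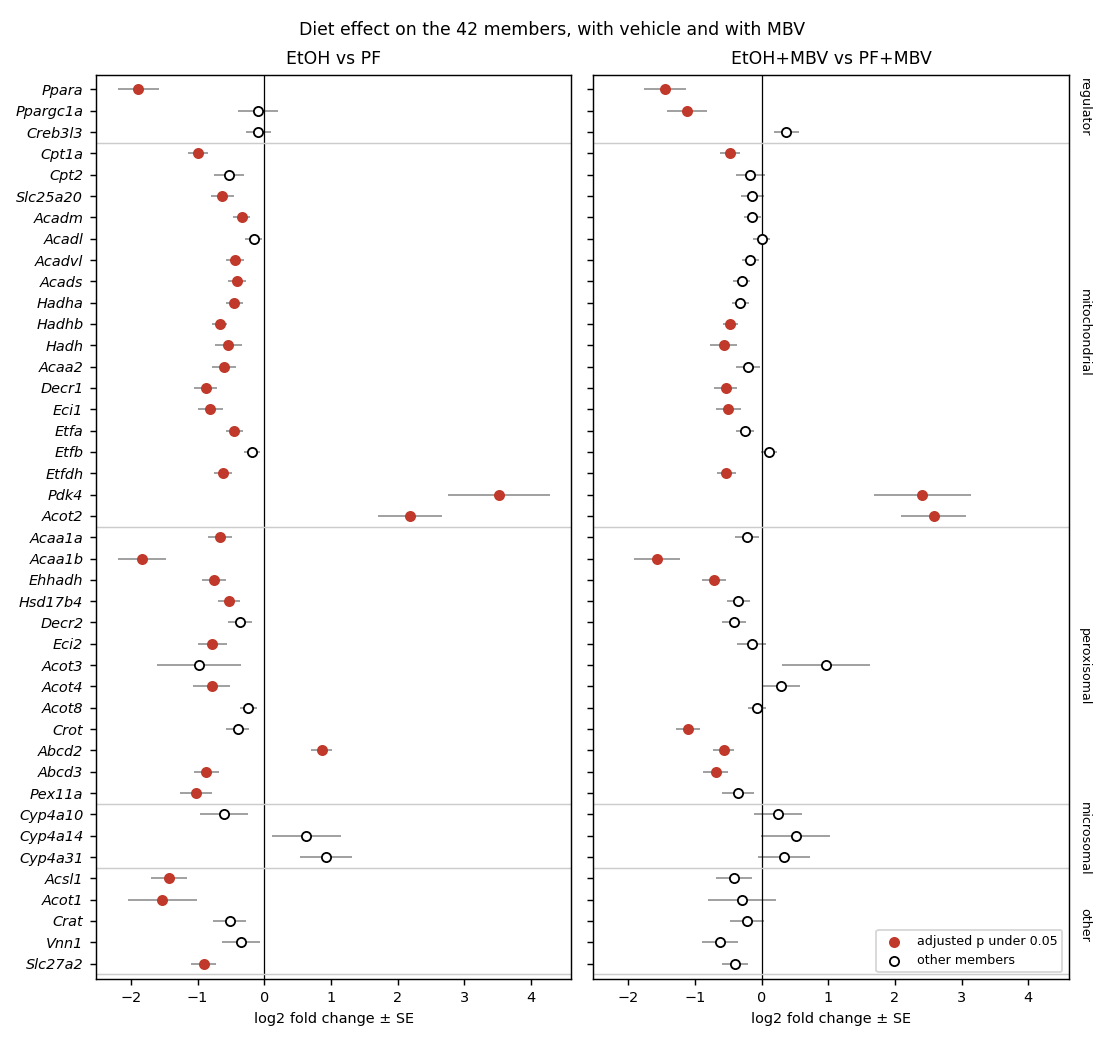
Log2 fold change with its standard error (x axis) for each of the 42 members (y axis, ordered by compartment), in EtOH against PF (left) and EtOH+MBV against PF+MBV (right). Filled points have an adjusted p under 0.05, 28 of 42 on the left and 15 of 42 on the right, and most lie left of 0.

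Ppara itself, the receptor of the pathway, fell furthest among the members. Its level was 664, 462, 654 and 511 CPM in PF and 76.8, 252, 178 and 113 CPM in EtOH, and every EtOH library lay below every PF library. The fall was 3.7-fold (log2 fold change -1.89 ± 0.31, adjusted p = 0.000232). Ppara lies on chromosome 15 from 85734983 to 85802819 of GRCm38 (mm10). The coactivator Ppargc1a, which drives mitochondrial gene expression, averaged 18.5 ± 3.25 CPM in PF against 17.6 ± 10.7 CPM in EtOH (log2 fold change -0.09 ± 0.30, adjusted p = 0.844). Creb3l3, a liver transcription factor that works with PPARA in fasting, averaged 385 ± 36.8 CPM in PF against 361 ± 124 CPM in EtOH (log2 fold change -0.09 ± 0.19, adjusted p = 0.731). Neither of these 2 passed the test, and EtOH 1 had the lowest level of both.

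Genes that activate fatty acids and carry them into mitochondria fell with ethanol. Acsl1, the main long-chain acyl-CoA synthetase of liver, was at 1973, 1445, 2042 and 2001 CPM in PF and 304, 648, 924 and 893 CPM in EtOH. Cpt1a, which makes long-chain acylcarnitine and is the controlled step of entry, was at 1224, 861, 1117 and 1040 CPM in PF and 423, 497, 649 and 572 CPM in EtOH. The highest EtOH library of either gene lay below the lowest PF library. Acsl1 fell 2.69-fold (log2 fold change -1.43 ± 0.27, adjusted p = 0.000722) and Cpt1a 1.98-fold (log2 fold change -0.99 ± 0.15, adjusted p = 0.00015). Slc27a2, a very long chain acyl-CoA synthetase and fatty acid transporter, had 2227, 1900, 2218 and 2159 CPM in PF and 707, 1287, 1417 and 1106 CPM in EtOH, again with no overlap, and fell 1.88-fold (log2 fold change -0.91 ± 0.19, adjusted p = 0.00133). Slc25a20, the carnitine-acylcarnitine carrier, had 173, 146, 176 and 186 CPM in PF and 66.0, 105, 135 and 134 CPM in EtOH and fell 1.55-fold (log2 fold change -0.63 ± 0.17, adjusted p = 0.00791). Cpt2, which returns the chain to CoA inside the mitochondrion, did not overlap between the groups, at 202, 195, 228 and 233 CPM in PF and 67.6, 154, 187 and 186 CPM in EtOH, but missed the limit (log2 fold change -0.53 ± 0.22, adjusted p = 0.0667). The acetyl carrier enzyme Crat also missed it, with 93.2 ± 19.4 CPM in PF against 65.0 ± 29.8 CPM in EtOH (log2 fold change -0.52 ± 0.25, adjusted p = 0.107). Cpt1a lies on chromosome 19 from 3322334 to 3385733 and Acsl1 on chromosome 8 from 46471037 to 46536051.

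Inside the mitochondrion, 11 of the 13 oxidation genes fell, or 84.6%, against 19.5% of all tested genes that were lower. Decr1, the reductase needed for unsaturated chains, fell most: it was at 251, 215, 236 and 283 CPM in PF and 79.9, 138, 169 and 149 CPM in EtOH, without overlap, and fell 1.84-fold (log2 fold change -0.88 ± 0.17, adjusted p = 0.000879). Eci1, an isomerase of the same auxiliary steps, was at 147, 126, 142 and 167 CPM in PF and 46.8, 86.1, 109 and 89.8 CPM in EtOH and fell 1.76-fold (log2 fold change -0.81 ± 0.19, adjusted p = 0.00309). Thus both auxiliary enzymes had all 4 EtOH libraries below PF. Of the trifunctional protein, Hadhb (thiolase subunit) was at 262, 242, 266 and 278 CPM in PF and 133, 159, 185 and 181 CPM in EtOH and fell 1.6-fold (log2 fold change -0.67 ± 0.11, adjusted p = 0.000255). Hadha (hydratase and dehydrogenase subunit) was at 481, 456, 487 and 481 CPM in PF and 254, 342, 423 and 378 CPM in EtOH and fell 1.36-fold (log2 fold change -0.45 ± 0.13, adjusted p = 0.0114). Neither subunit overlapped between the groups. Reads of Hadhb could be shared with near-identical sequence elsewhere in 14.8% of its 100-base windows, so its level is less certain.

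Acyl-CoA dehydrogenases take the first step of each cycle, and 3 of the 4 fell. Acadvl, for very long chains, was at 446, 458, 453 and 511 CPM in PF and 245, 339.8, 413 and 383 CPM in EtOH (log2 fold change -0.44 ± 0.13, adjusted p = 0.0141). Acads, for short chains, was at 125, 156, 139 and 143 CPM in PF and 78.5, 124, 118 and 103 CPM in EtOH (log2 fold change -0.41 ± 0.13, adjusted p = 0.0211). In both, EtOH and PF did not overlap. Acadm, for medium chains, was at 459, 404, 445 and 547 CPM in PF and 294, 358, 433 and 384 CPM in EtOH, where EtOH 3 reached above PF 2, and it passed only narrowly (log2 fold change -0.34 ± 0.13, adjusted p = 0.049). The call on Acadm was lost in 13 of the 16 fits that left out a library. Acadl, for long chains, averaged 268 ± 28.3 CPM in PF against 239.5 ± 51.9 CPM in EtOH and did not pass (log2 fold change -0.16 ± 0.13, adjusted p = 0.35). Acadvl overlaps Dvl2 on the opposite strand over 45% of its exon length, and without strand information reads of the pair cannot be told apart there.

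Later steps gave a like picture. Hadh, the short-chain hydroxyacyl-CoA dehydrogenase, was at 359, 327, 339 and 378 CPM in PF and 138, 288, 296 and 242 CPM in EtOH (log2 fold change -0.54 ± 0.20, adjusted p = 0.036). Acaa2, the mitochondrial thiolase, was at 940.1, 921, 929.7 and 1015 CPM in PF and 356, 650.4, 815 and 691 CPM in EtOH (log2 fold change -0.60 ± 0.18, adjusted p = 0.0128). For both, the EtOH libraries lay below all PF libraries, with EtOH 1 far below the rest. Of the electron carriers, Etfdh was at 332, 349.5, 324 and 358 CPM in PF and 148, 227, 270.4 and 241 CPM in EtOH (log2 fold change -0.62 ± 0.14, adjusted p = 0.00284) and Etfa at 356, 345, 343 and 385 CPM in PF and 186, 249, 333 and 282 CPM in EtOH (log2 fold change -0.45 ± 0.13, adjusted p = 0.015), both without overlap. Their partner Etfb averaged 237 ± 9.36 CPM in PF against 208 ± 45.7 CPM in EtOH and did not pass (log2 fold change -0.19 ± 0.12, adjusted p = 0.249). A gene model on the same strand covers 69.1% of the Etfb exon length, so its counts are uncertain. The calls on Acadvl, Acads, Acadm, Hadh, Hadha, Acaa2 and Etfa were lost in the fit of EtOH and PF alone, and those on Hadhb, Decr1, Eci1 and Etfdh were kept. The call on Hadh was also lost in 5 of the 16 fits that left out a library, and that on Acads without PF 2.

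**Figure D2:**
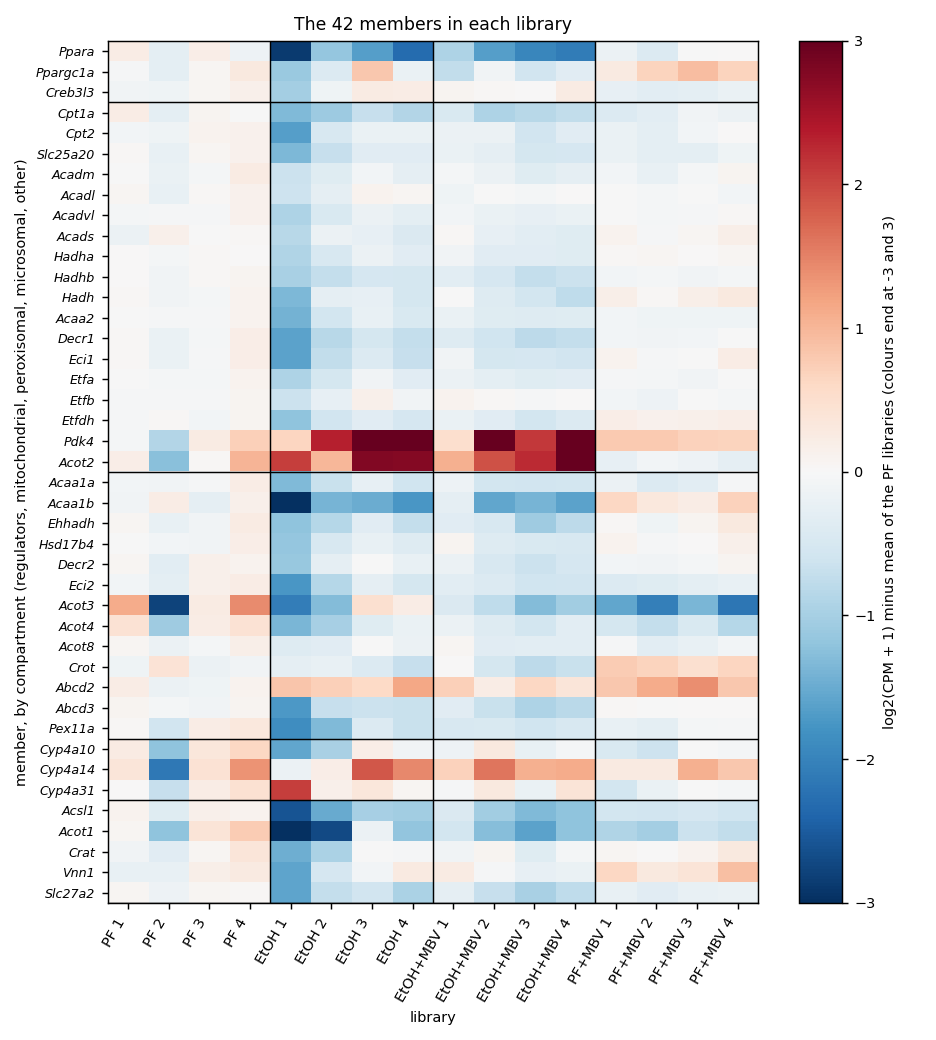
Each of the 42 members (rows, by compartment) in each of the 16 libraries (columns), as log2(CPM + 1) minus the mean of the PF libraries, with colours ending at -3 and 3. EtOH 1 is the bluest of the EtOH columns for most members, with the lowest level of its group in 38 of 42, while Pdk4 and Acot2 are red in the ethanol groups.

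Peroxisomal genes had a median log2 fold change of -0.76, and mitochondrial genes one of -0.49, and the difference between compartments was not tested. Acaa1b, a peroxisomal thiolase, fell most: it was at 1211, 1508, 1082 and 1451 CPM in PF and 125, 491, 463 and 385 CPM in EtOH, and its highest EtOH library was below its lowest PF library. It fell 3.59-fold (log2 fold change -1.84 ± 0.36, adjusted p = 0.000842). The near copy Acaa1a was at 251, 244, 257 and 308 CPM in PF and 105, 165, 222 and 173 CPM in EtOH and fell 1.59-fold (log2 fold change -0.67 ± 0.18, adjusted p = 0.00671). Both lie on chromosome 9, Acaa1b from 119148023 to 119157093 and Acaa1a from 119339676 to 119350299. The pair shares 100-base windows, 19.3% of those of Acaa1b and 7.2% of those of Acaa1a, and the deposited files hold reads with several alignments in a row apart from the genes, so their levels are uncertain.

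The bifunctional enzymes that hydrate and oxidise the peroxisomal chain also fell. Ehhadh, the classic PPARA-induced form, was at 419, 346, 377 and 479.9 CPM in PF and 174, 223, 318 and 244 CPM in EtOH, with every EtOH library below PF (log2 fold change -0.76 ± 0.18, adjusted p = 0.00401). Hsd17b4, the form for branched chains and bile acid precursors, was at 608, 581, 576 and 705 CPM in PF and 273, 438, 530.4 and 467 CPM in EtOH, also without overlap (log2 fold change -0.53 ± 0.17, adjusted p = 0.0235). Eci2, an isomerase, was at 280.4, 239, 330.2 and 345 CPM in PF and 86.8, 163, 245 and 203 CPM in EtOH, where EtOH 3 lay above PF 2 (log2 fold change -0.78 ± 0.22, adjusted p = 0.0102). The reductase Decr2 overlapped between the groups, with 333 ± 45.1 CPM in PF against 258 ± 75.9 CPM in EtOH (log2 fold change -0.37 ± 0.18, adjusted p = 0.121), and did not pass. The call on Hsd17b4 was lost without PF 4 (adjusted p = 0.0663), and those on Hsd17b4 and Eci2 were lost in the fit of EtOH and PF alone (adjusted p = 0.0679 and 0.0545).

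The membrane of the peroxisome showed both directions. Abcd3, the transporter that brings in branched chains and bile acid precursors, was at 923, 832, 815 and 915 CPM in PF and 264, 538, 559 and 548 CPM in EtOH and fell 1.83-fold (log2 fold change -0.87 ± 0.19, adjusted p = 0.00209). Pex11a, a peroxin that makes peroxisomes divide and a PPARA target, was at 88.8, 58.5, 101 and 109.5 CPM in PF and 23.4, 34.3, 65.0 and 54.6 CPM in EtOH and fell 2.02-fold (log2 fold change -1.02 ± 0.24, adjusted p = 0.00362). The EtOH libraries overlapped PF in Pex11a and not in Abcd3. Abcd2, a transporter of very long chain acyl-CoA, was instead at 22.8, 17.2, 17.6 and 21 CPM in PF and 35.3, 32.8, 29.9 and 44.8 CPM in EtOH, with every EtOH library above PF, and rose 1.81-fold (log2 fold change 0.86 ± 0.16, adjusted p = 0.000746). Crot, which makes octanoylcarnitine for export from the peroxisome, did not overlap but missed the limit, at 441, 639, 425 and 447 CPM in PF and 398, 415, 364 and 299 CPM in EtOH (log2 fold change -0.40 ± 0.17, adjusted p = 0.0761).

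Pdk4, the kinase that turns off pyruvate dehydrogenase when fat is burned, and a PPARA target, went the other way. It was at 9.9, 5.2, 12.6 and 17.7 CPM in PF and 17.0, 56.8, 283 and 165 CPM in EtOH. EtOH 1 lay below PF 4, and the other 3 EtOH libraries lay above every PF library. The rise was 11.5-fold (log2 fold change 3.52 ± 0.76, adjusted p = 0.00193). It was 2.80 on the log2 scale without EtOH 3 and 3.89 without EtOH 1, so leaving out EtOH 3 moved the fold by more than 1.5 times. Pdk4 lies on chromosome 6 from 5483351 to 5496309.

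**Figure D3:**
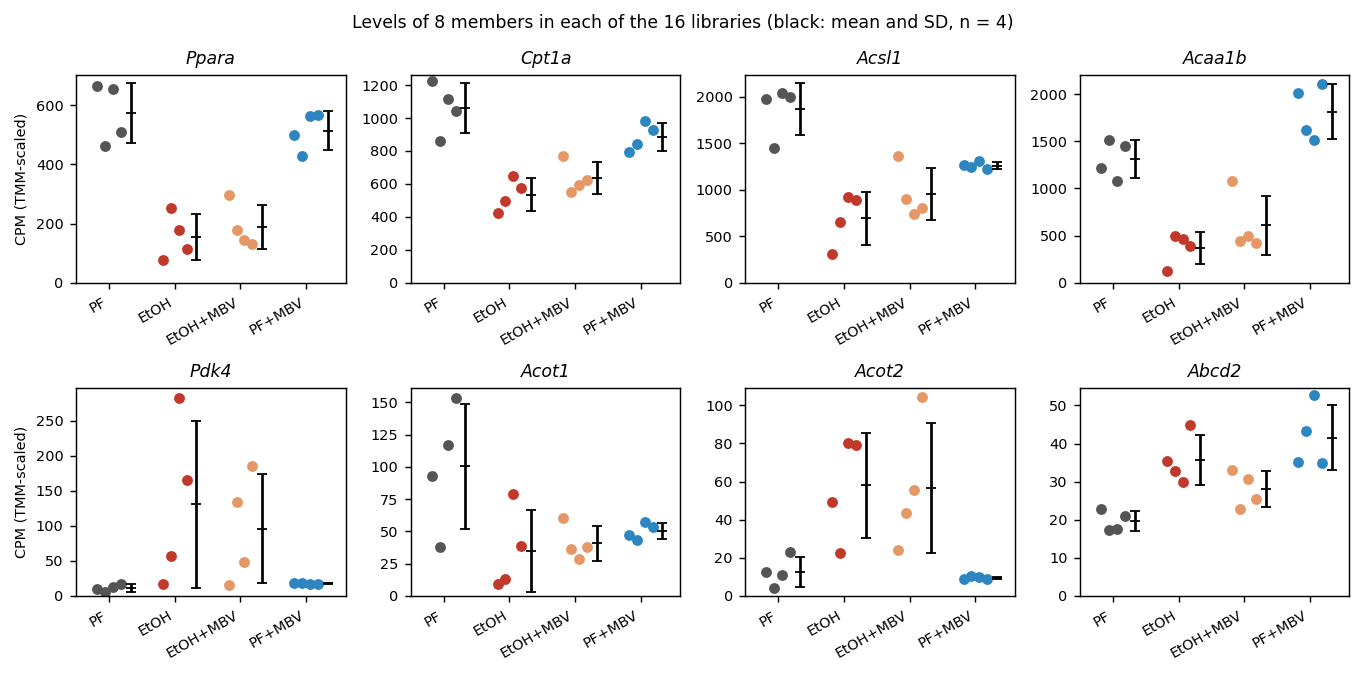
Levels of 8 members in CPM (y axis, from 0, TMM-scaled) in each library of the 4 groups (x axis), with each library as a point and the mean and SD (n = 4) in black. Ppara, Cpt1a, Acsl1 and Acaa1b are lower in every EtOH library than in PF, while EtOH+MBV 1 is the highest EtOH+MBV library of each, and for Acsl1 lies above all PF+MBV libraries. Pdk4 and Acot2 are high in most ethanol libraries, and Abcd2 has its lowest mean in PF.

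Acyl-CoA thioesterases, which release free fatty acid and CoA, split in 2 directions within 1 gene cluster. Acot2 (mitochondrial), Acot1 (cytosolic), Acot4 and Acot3 (both peroxisomal) lie in that order on the plus strand of chromosome 12, from 83987861 to 84060402. Acot1 was at 93.1, 38.2, 117 and 154 CPM in PF and 8.95, 12.9, 78.9 and 38.7 CPM in EtOH and fell 2.9-fold (log2 fold change -1.53 ± 0.52, adjusted p = 0.0275). Acot2 was at 12.8, 4.01, 11.1 and 23.0 CPM in PF and 49.5, 22.7, 80.3 and 79.4 CPM in EtOH and rose 4.55-fold (log2 fold change 2.19 ± 0.48, adjusted p = 0.00207). Each gene overlapped between the groups, through EtOH 3 and EtOH 4 against PF 2 for Acot1 and through EtOH 2 against PF 4 for Acot2. The ratio of Acot2 to Acot1 CPM within a library, chosen after the values were seen, was 0.137, 0.105, 0.0951 and 0.149 in PF. It was 5.52, 1.76, 1.02 and 2.05 in EtOH, so no library of the 2 groups overlapped in it. Without EtOH 3 the log2 fold change of Acot1 was -2.33, and its call was lost without PF 3, PF 4, EtOH 1 or EtOH 2 and in the fit of EtOH and PF alone. Acot4 was at 79.6, 27.7, 68.6 and 79.5 CPM in PF and 22.3, 28.9, 45.7 and 51.1 CPM in EtOH (log2 fold change -0.79 ± 0.28, adjusted p = 0.0336), and its call was lost in 5 of the 16 fits that left out a library, in the fit of EtOH and PF alone and in limma voom. Acot3 was at 67.5, 3.63, 36.8 and 83.6 CPM in PF and 6.53, 12.0, 43.1 and 36.3 CPM in EtOH and did not pass (log2 fold change -0.98 ± 0.63, adjusted p = 0.231), with PF 2 far below the other PF libraries. Acot8, another peroxisomal thioesterase on chromosome 2, averaged 19.6 ± 2.13 CPM in PF against 16.5 ± 2.13 CPM in EtOH (log2 fold change -0.24 ± 0.13, adjusted p = 0.132). Windows of 100 bases shared with other genes made up 12.4% of Acot1 (Acot2, Acot3 and Acot5 above all), 17.1% of Acot2 (Acot1) and 13.8% of Acot3 (Gm49366, a gene model that overlaps it on the same strand, Acot1 and Acot5), so counts of these genes are uncertain.

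The 250 bases before the RefSeq start sites of Acot1 and Acot2 are shown because these neighbours moved in opposite directions. Those of Acot4 and Etfa, which both fell, and of Creb3l3, which did not pass, are shown because each holds letters near the response element of PPARA with RXR. All are from GRCm38.p6, written 5′ to 3′ on the strand of the gene, and capitals mark a match to that element with up to 2 mismatches. Creb3l3 has 2 start sites in RefSeq, and the one with the match is shown.
Acot1, chr12:84009252-84009501, plus strand: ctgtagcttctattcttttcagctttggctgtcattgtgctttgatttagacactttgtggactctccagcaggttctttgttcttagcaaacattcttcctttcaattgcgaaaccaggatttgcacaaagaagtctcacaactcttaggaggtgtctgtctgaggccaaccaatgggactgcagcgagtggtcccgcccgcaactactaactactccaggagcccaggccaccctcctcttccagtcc
Acot2, chr12:83987611-83987860, plus strand: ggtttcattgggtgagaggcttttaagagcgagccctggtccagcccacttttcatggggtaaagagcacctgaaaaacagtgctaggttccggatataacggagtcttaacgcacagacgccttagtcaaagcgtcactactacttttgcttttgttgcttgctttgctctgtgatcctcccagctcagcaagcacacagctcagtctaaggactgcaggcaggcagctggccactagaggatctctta
Acot4, chr12:84038129-84038378, plus strand: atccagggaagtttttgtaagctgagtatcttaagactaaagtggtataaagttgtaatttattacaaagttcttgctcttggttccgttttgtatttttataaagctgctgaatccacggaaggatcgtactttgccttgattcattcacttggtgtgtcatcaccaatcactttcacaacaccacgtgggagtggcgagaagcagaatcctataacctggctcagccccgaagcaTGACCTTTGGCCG
Etfa, chr9:55512244-55512493, minus strand: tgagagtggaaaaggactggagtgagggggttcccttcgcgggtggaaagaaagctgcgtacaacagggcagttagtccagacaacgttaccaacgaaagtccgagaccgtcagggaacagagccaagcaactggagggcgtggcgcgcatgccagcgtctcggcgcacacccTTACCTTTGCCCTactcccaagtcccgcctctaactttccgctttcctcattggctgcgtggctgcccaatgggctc
Creb3l3, chr10:81092592-81092841, minus strand: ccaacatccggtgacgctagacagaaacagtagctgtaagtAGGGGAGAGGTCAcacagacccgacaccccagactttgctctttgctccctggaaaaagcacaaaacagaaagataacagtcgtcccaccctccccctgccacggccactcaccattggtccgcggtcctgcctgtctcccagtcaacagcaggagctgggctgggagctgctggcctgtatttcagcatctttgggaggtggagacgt

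The element searched was a pair of AGGTCA sites read in the same direction with 1 base of any kind between them, on both strands, in 300 bases from 250 before to 50 after the start. RefSeq promoters were matched for 33 of the 42 members, 37 promoters in all. An exact match occurred in 0 of these 37 and in 13 of 32851 promoters of all genes, or 0.04%. With up to 2 mismatches, 4 of 37 member promoters matched (10.81%), against 3.86% of all promoters. They belong to Acot4 and Etfa, both on the opposite strand, and to Creb3l3 and Slc25a20, the last with its match after the start site. Of these, Slc25a20, Etfa and Acot4 fell with ethanol and Creb3l3 did not pass. In a pairwise alignment, the upstream bases of Acot1 and Acot2 were 45.9% identical, within the 43.6% to 48.4% of the other pairs among Acot1, Acot2, Acot4 and Etfa. A match describes letters in this window only.

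The 3 CYP4A members, of the endoplasmic reticulum, did not pass the test in either direction, while Cyp4a12b, a CYP4A gene outside the 42, fell (log2 fold change -4.89 ± 0.67, adjusted p = 4.45e-05). Cyp4a10, an omega-hydroxylase and a standard PPARA target, was at 847, 307, 905 and 1101 CPM in PF and 243, 364, 818 and 659 CPM in EtOH (log2 fold change -0.60 ± 0.36, adjusted p = 0.191). Cyp4a14, a close relative, was at 717, 125, 760 and 1429 CPM in PF and 492, 639.7, 2031 and 1513 CPM in EtOH (log2 fold change 0.63 ± 0.52, adjusted p = 0.359). In both genes PF 2 was the lowest PF library by a wide margin, and the groups overlapped. Cyp4a31 was at 15.2, 8.96, 17.8 and 21.1 CPM in PF and 67.2, 17.0, 19.5 and 15.7 CPM in EtOH, with EtOH 1 alone far above the rest (log2 fold change 0.93 ± 0.39, adjusted p = 0.0656). The median log2 fold change of the 3 was 0.63. It was 0.14 without EtOH 1, 0.21 without EtOH 3, 0.27 without PF 2 and 1.09 without PF 4, so several single libraries move it. Without EtOH 3, Cyp4a10 passed the limit at -0.91. Vnn1, a pantetheinase and PPARA target, averaged 82.2 ± 14.7 CPM in PF against 64.8 ± 30.6 CPM in EtOH (log2 fold change -0.35 ± 0.28, adjusted p = 0.335).

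**Figure D4:**
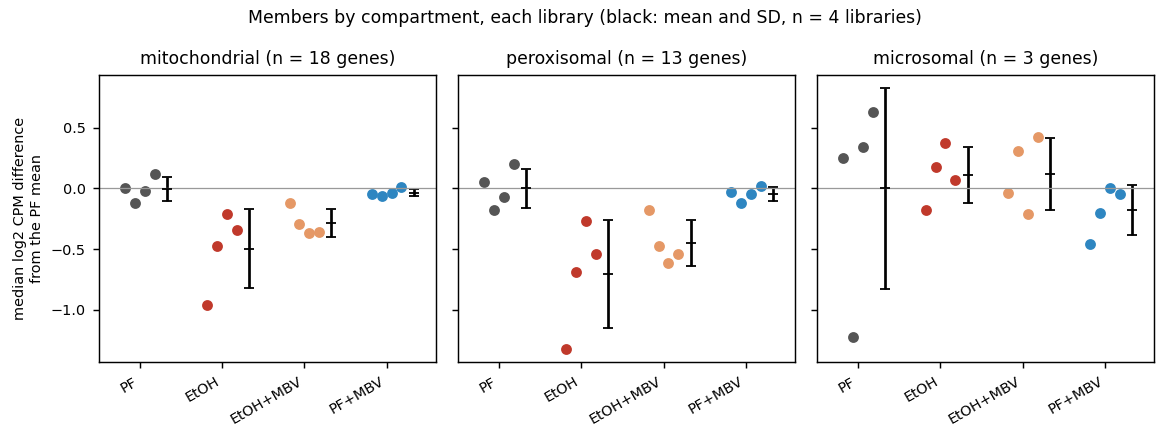
Median over the members of each compartment of the log2 CPM difference from the PF mean (y axis), for each library of the 4 groups (x axis), with the mean and SD (n = 4) in black. The mitochondrial and peroxisomal medians of all EtOH libraries lie below 0, with EtOH 1 lowest at -0.96 and -1.32, while the microsomal medians overlap between groups and PF 2 lies at -1.22.

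Spread between libraries differed by group. The median coefficient of variation of the members was 30% in EtOH, 15% in EtOH+MBV, 13.2% in PF and 7.28% in PF+MBV. Over all tested genes it was 20.3%, 16.6%, 14.2% and 9.99%. The median of the members was thus above that of all genes in EtOH and below it in the other 3 groups. PF 2 was the lowest PF library in 33 members and PF 4 the highest in 30, while EtOH 3 was the highest EtOH library in 34. The fit uses 1 spread per gene for all groups.

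Per kilobase of exon, the members spanned a wide range of levels in PF. Acaa1b (777 CPM per kilobase), Slc27a2 (729), Acaa2 (628) and Acsl1 (447) had the highest levels. Ppargc1a (2.87), Pdk4 (3.25), Abcd2 (3.56) and Acot2 (5.79) had the lowest. In EtOH, the level of Acaa1b was 217 and that of Cyp4a14 468 CPM per kilobase, as means of 4 libraries between which Cyp4a14 ranged from 492 to 2031 CPM. Thus the 3 members that rose were among the 4 lowest in PF on this scale, as a description of the levels.

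Genes outside the 42, on lists drawn up around the same pathway, were counted by list in EtOH against PF, where 39.8% of all tested genes were called. Of 5 ketogenesis genes, 2 fell and none rose, or 40%, about the share of all genes (median log2 fold change -0.39). They were the hydroxybutyrate dehydrogenases Bdh2 (log2 fold change -1.32 ± 0.25, adjusted p = 0.000614) and Bdh1 (log2 fold change -0.83 ± 0.19, adjusted p = 0.00271). Of 33 tested other oxidation enzymes, 19 fell and 3 rose, or 66.7% (median -0.52). That list also holds enzymes of amino acid breakdown, such as Ivd, Gcdh, Acad8 and Hibch, so its count is not of fatty acid oxidation alone. Nudt7, a peroxisomal CoA hydrolase, fell 8.09-fold from 440.4 ± 145 CPM to 54.5 ± 12.7 CPM (log2 fold change -3.02 ± 0.27, adjusted p = 1.23e-06). Acox3 (log2 fold change -1.16 ± 0.13, adjusted p = 8.07e-06), a peroxisomal oxidase, Scp2 (log2 fold change -1.34 ± 0.21, adjusted p = 0.000136), which holds a peroxisomal thiolase, and Hsd17b10 (log2 fold change -0.99 ± 0.16, adjusted p = 0.000211), a mitochondrial dehydrogenase, were the next by p. Of 15 peroxins, which build peroxisomes and import their proteins, 8 fell and none rose, or 53.3% (median -0.43). Pex6 (log2 fold change -1.04 ± 0.16, adjusted p = 0.000118), Pex5 (log2 fold change -0.56 ± 0.12, adjusted p = 0.00213), Pex3 (log2 fold change -0.51 ± 0.11, adjusted p = 0.00237) and Pex26 (log2 fold change -0.89 ± 0.21, adjusted p = 0.00323) had the smallest p. The carnitine supply list had 2 falls and 1 rise among 4 tested genes. Bbox1, the last step of carnitine synthesis, fell (log2 fold change -0.81 ± 0.16, adjusted p = 0.000774), as did Aldh9a1 (log2 fold change -0.53 ± 0.15, adjusted p = 0.0118). Slc25a29, a mitochondrial carrier of basic amino acids placed on this list, rose (log2 fold change 1.14 ± 0.31, adjusted p = 0.00864).

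Partners of PPARA were called about as often as all genes. Of 13 partners, 2 rose and 3 fell, or 38.5% against 39.8% of all tested genes (median -0.02). Rxrb, a partner receptor, fell (log2 fold change -0.49 ± 0.10, adjusted p = 0.00119), as did Esrra (log2 fold change -0.70 ± 0.16, adjusted p = 0.00249) and Pparg (log2 fold change -0.57 ± 0.13, adjusted p = 0.00266), and the sister receptor Ppard rose (log2 fold change 0.81 ± 0.17, adjusted p = 0.00126). Of 31 other PPARA targets tested, 10 fell and 8 rose, or 58.1% (median -0.30). Fabp1, the liver fatty acid binding protein, was at 2877, 3267, 2533 and 2808 CPM in PF and 305, 731, 913 and 699.8 CPM in EtOH and fell 4.34-fold (log2 fold change -2.12 ± 0.30, adjusted p = 6.7e-05). Cyp4a12b fell 29.7-fold (log2 fold change -4.89 ± 0.67, adjusted p = 4.45e-05). Hilpda, a lipid droplet protein also induced by low oxygen, was at 1.22, 2.38, 1.94 and 4.35 CPM in PF and 18.5, 12.7, 62.3 and 55.8 CPM in EtOH and rose 15.1-fold (log2 fold change 3.92 ± 0.73, adjusted p = 0.000648), and Acot6, a further thioesterase, rose 5.16-fold (log2 fold change 2.37 ± 0.46, adjusted p = 0.000813). Thus genes placed on this list of PPARA targets fell and rose in the same libraries.

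Markers of other liver cells were also counted in EtOH against PF, where 39.8% of all tested genes were called (19.5% lower and 20.4% higher). Of the liver endothelium list, 5 of 6 fell (83.3% called). Its summed level was 215.2 to 266.4 CPM in EtOH against 370.6 to 437.8 in PF. Of the stellate list, 5 of 6 rose and 1 fell, or 100% called (203.9 to 337 against 205.3 to 219.9 CPM). Of 7 Kupffer cell and macrophage markers, 2 rose, or 28.6%, below the share of all genes. Their sum was 160.6 to 229.3 CPM in 3 EtOH libraries, 523.5 in EtOH 1 and 261.4 to 354.3 in PF. Of 5 cholangiocyte markers, 1 rose, or 20%, also below that share (37.08 to 49.94 against 35.85 to 60.77 CPM). Neither tested neutrophil marker (sums 0.931 to 6.98 against 0.55 to 4.66 CPM) nor the tested T and B cell marker (0.387 to 1.14 against 1.75 to 2.05 CPM) passed. The adipocyte sum was at most 0.242 CPM in EtOH and 6.28 to 19.4 CPM in PF, and 3 of its 5 markers were at 0 in each of these groups. Cfd, the adipocyte marker that was tested, fell in EtOH against PF. The part of these cells in the falls of the members was not tested.

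MBV on the ethanol diet left the members without a call. In EtOH+MBV against EtOH, edgeR called 0 of 42 members, where 2.69% of all tested genes passed, and 2 members (Cyp4a31 and Abcd2) had an unadjusted p under 0.05. DESeq2 and limma voom also called 0 members. The libraries of the 2 groups overlapped in all 42 members, against 7.6% of genes without overlap. The median log2 fold change of the members was 0.21, with 34 of 42 above 0 and a range of -0.86 to 0.74, and all 13 mitochondrial oxidation genes were above 0. Without EtOH 1 the median was 0.05, and without EtOH 1 and EtOH+MBV 1 it was -0.03, so these libraries set its direction.

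In EtOH+MBV, Ppara was at 298, 178, 145 and 132 CPM, within the range of EtOH except for EtOH+MBV 1, which lay above it (log2 fold change 0.28 ± 0.30, adjusted p = 0.635). Its log2 fold change was -0.03 without EtOH+MBV 1. Cpt1a was at 772, 550, 592 and 626 CPM (log2 fold change 0.25 ± 0.15, adjusted p = 0.378), Acaa1b at 1078, 438, 496 and 425 CPM (log2 fold change 0.74 ± 0.35, adjusted p = 0.237) and Ehhadh at 317, 290.4, 193 and 235 CPM (log2 fold change 0.11 ± 0.18, adjusted p = 0.781). EtOH+MBV 1 was the highest of the group in all 4 genes. Pdk4 was at 15.3, 134, 48.9 and 185 CPM (log2 fold change -0.45 ± 0.68, adjusted p = 0.756), with EtOH+MBV 1 lowest. Acot1 was at 60.5, 36.2, 28.7 and 38.1 CPM (log2 fold change 0.24 ± 0.51, adjusted p = 0.834) and Acot2 at 24.0, 43.4, 55.5 and 104 CPM (log2 fold change -0.03 ± 0.45, adjusted p = 0.979). The ratio of Acot2 to Acot1 was 0.397 in EtOH+MBV 1 and 1.20 to 2.73 in the other 3 libraries. Cyp4a10 was at 642, 879, 609 and 689 CPM (log2 fold change 0.44 ± 0.36, adjusted p = 0.517) and Cyp4a14 at 909.8, 1695, 1167 and 1218 CPM (log2 fold change 0.09 ± 0.52, adjusted p = 0.943).

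Among the pathway lists, 1 of 15 peroxins passed in EtOH+MBV against EtOH, Pex11g, which was higher (log2 fold change 0.49 ± 0.12, adjusted p = 0.0442). That is 6.67%, against 2.69% of all tested genes. The 5 ketogenesis genes, 13 partners, 31 other targets, 4 carnitine genes and 33 other oxidation enzymes had 0 calls in edgeR, with 1, 3, 4, 0 and 3 at an unadjusted p under 0.05. These lists were read from the edgeR fit only. Adipocyte markers were at most 0.318 CPM in this group, and the endothelium sum was 242.3 to 324 CPM.

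With MBV in pair-fed mice, Abcd2 rose. In PF+MBV against PF, 1 of 42 members passed, as did 1.78% of all tested genes, and 9 of 42 did not overlap, or 21.4%, against 15% of genes. Abcd2 was at 35.0, 43.3, 52.8 and 35.0 CPM in PF+MBV and 22.8, 17.2, 17.6 and 21 in PF, with no overlap, and rose 2.11-fold (log2 fold change 1.08 ± 0.16, adjusted p = 0.00472). Abcd2 lies on chromosome 15 from 91145871 to 91191799. It was kept in every fit that left out a library. Adipocyte markers, summed, were at 66.6 CPM in PF+MBV 4 and 3.28 to 15.3 CPM in the other 3 libraries and 6.28 to 19.4 CPM in PF. In PF+MBV 4 this sum was nearly all Cfd (66.35 CPM), with Adipoq and Plin1 at 0. Adipoq (0.94 CPM) and Plin1 (1.06 CPM) were detected in PF+MBV 1 only. The part of these markers in the level of Abcd2 was not tested. The comparisons of EtOH and of PF+MBV with PF share the PF libraries.

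Crot and Acot3 lay near the limit in pair-fed mice. Crot was at 814, 764, 674 and 751 CPM in PF+MBV and 441, 639, 425 and 447 in PF, without overlap (log2 fold change 0.62 ± 0.17, adjusted p = 0.0808). Acot3 was at 9.7, 6.71, 11.3 and 6.07 CPM in PF+MBV and 67.5, 3.63, 36.8 and 83.6 in PF, where PF 2 lay below all PF+MBV libraries and the other 3 above them (log2 fold change -2.50 ± 0.67, adjusted p = 0.0687). DESeq2 called both, and without PF 2 edgeR called both and Acot4. A fit of PF and PF+MBV alone called 6 members: Abcd2, Acot3, Acsl1 (lower, log2 fold change -0.57), Crot, Ppargc1a and Vnn1. In that fit the groups do not share their spread with the ethanol libraries.

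With all 16 libraries in edgeR, none of the 25 members that fell with ethanol was called in PF+MBV against PF. Beside the fits above, Acsl1 was called lower without EtOH 1 and EtOH+MBV 1 (log2 fold change -0.57, adjusted p = 0.016). In that same edgeR fit Acaa1b was called higher (log2 fold change 0.46, adjusted p = 0.0425). Ppara was at 501, 429, 563 and 566 CPM in PF+MBV (log2 fold change -0.15 ± 0.30, adjusted p = 0.85), Cpt1a at 792, 844, 981 and 925 CPM (log2 fold change -0.26 ± 0.15, adjusted p = 0.424) and Ehhadh at 409.6, 371, 425 and 495 CPM (log2 fold change 0.07 ± 0.18, adjusted p = 0.894). All 3 overlapped PF. Pdk4 was at 18.8, 18.7, 17.4 and 17.3 CPM (log2 fold change 0.67 ± 0.72, adjusted p = 0.702) and Acot1 at 47.6, 43.4, 57.2 and 53.7 CPM (log2 fold change -0.99 ± 0.51, adjusted p = 0.344). Cyp4a10 was at 518, 468, 713 and 689 CPM (log2 fold change -0.40 ± 0.36, adjusted p = 0.624) and Cyp4a14 at 675, 669, 1178 and 984 CPM (log2 fold change 0.21 ± 0.52, adjusted p = 0.886). The PF+MBV libraries of Pdk4 and Acot1 lay close together, within the range or at the edge of PF. Of the 13 partners, 3 were lower and 1 higher in PF+MBV, namely Pparg, Med1 and Esrra and, higher, Nr0b2. That is 30.8%, against 1.78% of all tested genes. Of the 15 peroxins Pex26 was lower and of the 33 other oxidation enzymes Acsl3 was higher, while ketogenesis, other targets and carnitine supply had 0 calls in edgeR and 2, 6 and 1 genes at an unadjusted p under 0.05.

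The ethanol effect was also read within MBV-treated mice. In EtOH+MBV against PF+MBV, 13 of the 42 members were lower and 2 higher, or 35.7%, which is close to the 35.9% of all tested genes (16.7% lower and 19.2% higher). The groups did not overlap in 23 members, or 54.8%, against 39% of genes. The count was 10 to 23 when 1 library was left out, the most without EtOH 1, and 26 (23 lower, 3 higher) without EtOH 1 and EtOH+MBV 1. It was 25 in a fit of these 2 groups alone. This comparison and EtOH against PF share no library. Pdk4 (log2 fold change 2.41 ± 0.73) and Acot2 (2.58 ± 0.49) were higher, as in EtOH against PF. The call on Pdk4 was lost without EtOH+MBV 4 (log2 fold change 1.87, adjusted p = 0.0687) and in limma voom (adjusted p = 0.0823), and that on Acot2 was kept in every fit that left out a library.

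Among the 13 lower members, Ppara (-1.45 ± 0.31), Acaa1b (-1.57 ± 0.35), Ehhadh (-0.72 ± 0.18), Abcd3 (-0.69 ± 0.19), Hadhb (-0.47 ± 0.11) and Etfdh (-0.53 ± 0.14) were also lower in EtOH against PF, and kept their calls in every fit that left out a library. Cpt1a (-0.48 ± 0.15), Hadh (-0.57 ± 0.20), Decr1 (-0.54 ± 0.17) and Eci1 (-0.50 ± 0.19) were lower as well, but lost the call without some libraries, Eci1 in 13 of 16 fits. The remaining 3 were not among the members that fell in EtOH against PF, where Crot missed the limit, Ppargc1a did not pass and Abcd2 rose. Crot was at 485, 333, 280.4 and 302 CPM in EtOH+MBV, below every PF+MBV library (log2 fold change -1.10 ± 0.18, adjusted p = 0.000262). Ppargc1a was at 10.6, 16.9, 12.0 and 14.3 CPM and at 22.4, 29.6, 35.9 and 29.6 in PF+MBV, without overlap (log2 fold change -1.12 ± 0.30, adjusted p = 0.00943). Abcd2 was at 32.96, 22.8, 30.8 and 25.5 CPM, below PF+MBV (log2 fold change -0.57 ± 0.16, adjusted p = 0.0127), and this call was lost without EtOH+MBV 2 or PF+MBV 3. Acsl1, which fell with ethanol under vehicle, was at 1362, 897, 741 and 804 CPM in EtOH+MBV and 1265, 1239, 1310 and 1224 in PF+MBV, and did not pass here (log2 fold change -0.41 ± 0.27, adjusted p = 0.248).

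In this comparison 35.9% of all tested genes were called (16.7% lower and 19.2% higher). The 5 ketogenesis genes had 2 lower (40%), the 33 other oxidation enzymes 15 lower and 3 higher (54.5%), and the 15 peroxins 3 lower (20%). The 13 partners had 2 lower and 4 higher (46.2%) and the 31 other targets 6 lower and 4 higher (32.3%). The 4 carnitine genes had 2 lower and 1 higher (75%). Ketogenesis was thus near the share of all genes, and peroxins and other targets were below it. The endothelium sum was 242.3 to 324 CPM in EtOH+MBV and 379.7 to 427.9 CPM in PF+MBV, and the part of these cells was not tested.

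Whether MBV acted differently on the 2 diets was tested by the interaction. It passed for 1 of 42 members, and for 4.11% of all tested genes. That member was Abcd2 (log2 difference of the MBV effects -1.43 ± 0.23, adjusted p = 0.0097), which rose with MBV on the pair-fed diet and had a log2 fold change of -0.35 ± 0.16 on the ethanol diet. The call held in every fit that left out a library. The next by p were Crot (log2 difference -0.70 ± 0.25, adjusted p = 0.109), Acot4 (1.08 ± 0.40, adjusted p = 0.119) and Acsl1 (1.02 ± 0.38, adjusted p = 0.12). None of these 3 passed with all libraries, while Crot passed without PF 2 or without EtOH+MBV 1 and Acot4 without PF 2. The smaller count of members lower in EtOH+MBV against PF+MBV than in EtOH against PF is therefore not shown to be a difference between treatments.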

How the data were processed

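Liver poly(A) RNA of 16 mouse libraries was sequenced on an Illumina platform, per the labels' protocols. Per the submitters' processing notes, Trimmomatic, STAR and mm10 were used, and no source used here gives their versions, settings or annotation. The authors deposited read counts per gene for each library, and the unstranded count column was used unchanged, since the 2 stranded columns split reads evenly (50.58% to 51.79% in 1 of them). Rows that are not genes were left out: unmapped reads were 11.57% to 19.89%, multimapped 4.57% to 7.58%, without feature 9.4% to 10.87% and ambiguous 1.35% to 1.69%. STAR counts only reads with 1 place, so near copies lose reads.

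Genes were kept by filterByExpr (minimum count 10) and scaled by TMM (factors between 0.863 in EtOH 3 and 1.269 in EtOH 1). A quasi-likelihood model with 1 mean per group was fitted with edgeR 4.0.16 (R 4.3.3), with 12 residual degrees of freedom, and 4 pairwise contrasts and the interaction were tested with Benjamini-Hochberg adjustment at 0.05. SE is the log2 fold change over the root of F. Alternatives used limma 3.58.1 and DESeq2 1.42.0, other scaling and filters, a replicate block, the 2 groups alone and each library left out. Heatmap values use a pseudocount of 1. The fit was tested on simulated counts.

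The 42 members and all lists were chosen with earlier results of these data known. Every member may be named, with values per library for those that passed in a comparison and for Ppara, Cpt1a, Pdk4, Ehhadh, Cyp4a10, Cyp4a14 and Acot1. Up to 4 genes a pathway list, those with the smallest p in EtOH against PF, are named, and others were named after their values were seen. Counts over these lists leave out 2 genes that are not reported here. Coordinates and exon lengths are from GENCODE M21, which matched 23376 of 24411 symbols.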

Additional observations from a re-analysis of the deposited data

Results flagged for a closer look

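In groups of 4 libraries, a library was singled out when its gap to the nearest other exceeded Dixon's 95% limit, as a share of the group's range, which chance gives in about 1 of 20 groups. Of 168 groups of members, 13 met this. EtOH+MBV 1 accounted for 7, all high: Hadha at 443.6 CPM, Acaa2 at 833.1, Acaa1a at 235.8, Acaa1b at 1078, Hsd17b4 at 650, Eci1 at 134.2 and Acot8 at 20.29 CPM. For Acaa1b the other 3 EtOH+MBV libraries were at 424.6 to 496.1 CPM. In EtOH 1, Abcd3 was low at 264 CPM (others 537.7 to 558.7) and Cyp4a31 high at 67.23 CPM (others 15.73 to 19.47). In PF 2, Acsl1 was low at 1445 CPM (others 1973 to 2042) and Crot high at 639.1 CPM (others 424.6 to 447.1). Etfb was high in PF 4 at 250.6 CPM, and Slc27a2 low in PF+MBV 2 at 1668 CPM.

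The MBV effect on Abcd2 differed between the diets in the interaction test of edgeR (log2 difference -1.43 ± 0.23, adjusted p = 0.0097).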

How the results depend on the processing

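Of the calls in EtOH against PF, 22 of 28 were kept in every fit that left out a library, and 17 also under every other alternative listed in the methods. The next counts follow members called with all libraries and, in the pairwise comparisons, Ppara, Cpt1a, Pdk4, Ehhadh, Cyp4a10, Cyp4a14 and Acot1. Of their values over the alternatives, 1435 kept their side of the limit and direction, 82 lost a call, 1 gained a call and 17 changed sign. Calls gained by other members, such as Crot and Acot3 in PF+MBV against PF with DESeq2, are not in these counts. The cause of the changes was not tested. The counts of members called were 23 to 33 with 1 library left out in EtOH against PF, 0 in EtOH+MBV against EtOH, 1 to 4 in PF+MBV against PF, 10 to 23 in EtOH+MBV against PF+MBV and 1 to 4 in the interaction. The counts of all genes called were then 4268 to 5435, 8 to 1169, 45 to 689, 3412 to 5512 and 168 to 1088. The compartment medians were -0.63 to -0.32 (mitochondrial), -0.92 to -0.55 (peroxisomal) and 0.14 to 1.09 (microsomal).

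DESeq2 called 905 genes in EtOH+MBV against EtOH (edgeR 347), 654 in PF+MBV against PF (edgeR 230, with 3 members against 1) and 1113 in the interaction (edgeR 530). Fits of the 2 groups alone called 17 members in EtOH against PF, 6 members and 1119 genes in PF+MBV against PF, 25 members in EtOH+MBV against PF+MBV, and 0 genes in EtOH+MBV against EtOH, where 1679 had an unadjusted p under 0.05 and limma voom on all libraries called 247. Without EtOH 1 and EtOH+MBV 1, chosen after seeing the data, 180 genes were called in EtOH+MBV against EtOH, 1022 genes and 5 members in PF+MBV against PF, 26 members in EtOH+MBV against PF+MBV, 887 genes and 2 members in the interaction, and the microsomal median was 0.15. Replicate numbers do not pair the libraries: 3 of 24 pairs with the same number correlated above 0.1 (range -0.12 to 0.17), and 2 of 16 libraries correlated best with their own number. The replicate block gave 205 genes in EtOH+MBV against EtOH and 26 members in EtOH against PF.

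Among the values so followed, signs changed only for those that no setting called. In EtOH+MBV against EtOH, leaving out 1 library gave log2 fold changes of -0.03 to 0.62 for Ppara, -0.01 to 0.28 for Ehhadh, -0.15 to 0.51 for Cyp4a14, -0.08 to 1.03 for Acot1 and -0.98 to 0.27 for Pdk4. Without EtOH 1 and EtOH+MBV 1 they were -0.25 for Ppara, -0.13 for Ehhadh, -0.04 for Cyp4a14 and -0.34 for Acot1. In PF+MBV against PF, leaving out 1 library gave -0.01 to 0.15 for Ehhadh and -0.14 to 0.71 for Cyp4a14. Members at low counts, such as Acot3 with 3.63 CPM in PF 2, carry more counting error.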
